A study of Homo sapiens with 8 samples.

Results

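The genes described here are 32 genes of cholesterol and fatty acid synthesis, taken by gene name from the 31461 genes of the deposited expression table. They comprise 9 enzymes from acetyl units to lanosterol through mevalonate and squalene, 8 enzymes of the later sterol steps, 6 regulators and carriers of the SREBP system, and 9 enzymes of fatty acid synthesis, elongation and desaturation. All 32 passed the filter on low values and were among the 14635 genes tested. The 8 RNA-seq libraries came from the wild-type human lung cancer lines A549 and H1299, each transfected with a control microRNA (miR-ctrl) or with miR-29a-3p, whose best known targets are collagen genes. The stated aim was to identify potential targets of miR-29a-3p. Each of the 4 groups, control and miR-29a-3p in either line, held 2 libraries. Neither the dose of the microRNA nor the time after transfection is given in the sources used here.

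Cells make cholesterol from acetyl-CoA through mevalonate, squalene and lanosterol, and fatty acids from the same precursor through malonyl-CoA. Both branches are switched on by SREBP transcription factors, which the escort protein SCAP carries from the endoplasmic reticulum to the Golgi when sterols are scarce and which INSIG proteins hold back when sterols are plentiful. SREBF2 is best known for driving the sterol genes and SREBF1 the fatty acid genes, and INSIG1 is itself a target of the factors it restrains.

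Mature miR-29a-3p is shown first because its seed, bases 2 to 8, defines the sites searched for in the genes, with the related miR-29b-3p and miR-29c-3p beside it. Capitals mark the seed, which is the same in all 3. The sequences are from RefSeq on GRCh38.p14, where miR-29a-3p lies at chr7:130876748-130876769 on the minus strand.
hsa-miR-29a-3p: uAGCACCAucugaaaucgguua
hsa-miR-29b-3p: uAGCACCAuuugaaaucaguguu
hsa-miR-29c-3p: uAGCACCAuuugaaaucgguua

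A match to these 7 seed bases, TGGTGCT (a 7mer-m8 site), was present in the longest annotated 3′ UTR of 6 of the 32 genes, or 18.8%. Among the 11630 tested genes with an annotated 3′ UTR, 16.4% held this match or the longer 8mer TGGTGCTA, and no member held the 8mer. The matches are printed with 15 bases before and 3 after, from GENCODE release 29 on GRCh38, because INSIG1, HMGCS1 and SCAP were among the members that fell in the A549-labelled libraries and ACACA, MVK and SREBF1 were not. Capitals mark the match. The HMGCS1 site lies at chr5:43289913-43289937 (minus strand), the INSIG1 site at chr7:155308646-155308670 (plus strand) and the SREBF1 site at chr17:17812416-17812440 (minus strand). The MVK site lies at chr12:109597689-109597713 (plus strand), the ACACA site at chr17:37086079-37086103 (minus strand) and the printed SCAP site at chr3:47413933-47413957 (minus strand). The HMGCS1 match was in the 3′ UTR of 2 of 2 coding transcripts, the INSIG1 match in 4 of 4, the SREBF1 match in 3 of 4, the ACACA match in 4 of 7 and the MVK match in 2 of 8. SCAP had 2 matches, but both lay in the coding sequence of 3 of its 4 coding transcripts and in the 3′ UTR of only 1.
HMGCS1: ttgtgtagatcttttTGGTGCTgaa
INSIG1: aaggaggtaggttgaTGGTGCTtaa
SREBF1: gaccggcggccatgaTGGTGCTgac
MVK: atattgcagtcagctTGGTGCTttc
ACACA: tttacaactcagtcaTGGTGCTgct
SCAP: ctgcccgccagatccTGGTGCTgga

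The libraries held an estimated 12221310 to 15614821 fragments each, at which a transcript of 1 kb at 1 FPKM (fragments per length of transcript, relative to all mapped fragments) corresponds to 12.2 to 15.6 fragments. Markers of the lines went against the labels. The summed level of 7 A549 markers was 133 to 143 FPKM in the A549-labelled controls and 1010 to 1040 FPKM in the H1299-labelled controls. ALDH1A1, AKR1B10, AKR1C1 and AKR1C2 were higher in the H1299-labelled controls, CES1 was lower there, and GPX2 and SFTPB overlapped. CDKN2A, a cell cycle inhibitor deleted in A549, stood at 23.8 to 24.8 FPKM in the A549-labelled controls and at 0.0513 to 0.112 in the H1299-labelled ones. For this reason each line is called by its label, and directions in a line refer to that label. After miR-29a-3p the summed A549 markers of the H1299-labelled libraries stood at 1790 to 1850 FPKM, and the summed fibroblast markers (5 genes, mainly LUM) went from 1.04 to 1.12 up to 2.43 to 2.56 FPKM. Leukocyte markers (5 genes) summed to 0.498 to 0.552 FPKM in the H1299-labelled controls and 0.968 to 0.996 after miR-29a-3p, and to 0.192 to 0.414 and 0.255 to 0.397 in the A549-labelled libraries. Endothelial markers (4 genes) summed to 0.208 to 0.413 FPKM over all libraries. The part of these shifts in the results was not tested.

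In the control libraries the members were mostly lower in the H1299-labelled cells. Lower levels there were called for 29 of the 32 genes and higher levels for 0 (limma; also 0 at an unadjusted p under 0.05), where 45.0% of all genes tested were lower and 29.8% higher. Their median difference (H1299-labelled minus A549-labelled, log2(FPKM + 1) scale) was -1.34, with -0.17 for all genes. In bulk RNA, fewer cells expressing a gene and less RNA per cell cannot be told apart. FASN, the fatty acid synthase, had the widest gap, at 150.1 and 139 FPKM in the A549-labelled controls and 13.6 and 13.8 in the H1299-labelled ones (log2 difference -3.30 ± 0.05 SE, adjusted p = 4.7e-08). SCD, the stearoyl-CoA desaturase, stood at 993 and 994 FPKM in the A549-labelled and at 142 and 140.4 in the H1299-labelled controls (log2 difference -2.81, adjusted p = 2.6e-08). The groups did not overlap for either gene. INSIG1, the sterol-dependent retention protein, was at 20.8 and 21.0 FPKM against 1.89 and 2.59 (log2 difference -2.76, adjusted p = 1.7e-06).

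Among the sterol enzymes, 16 of 17 were lower in the H1299-labelled controls, with a median log2 difference of -1.26. LSS, which closes squalene epoxide into lanosterol, had the widest gap of the 17 (log2 difference -2.48), at 24.5 and 22.0 FPKM against 3.37 and 3.29. The early enzymes from HMGCS1 to LSS had a median of -1.86 and the late enzymes from CYP51A1 on a median of -0.79. Of the fatty acid enzymes, 8 of 9 were lower (median -1.41), and FADS1, a front-end desaturase, was at 11.96 and 12.08 FPKM in the A549-labelled and 11.7 and 12.6 in the H1299-labelled controls. Of the regulators, 5 of 6 were lower (median -1.21), and SCAP stood at 8.90 and 8.08 FPKM against 7.40 and 7.42 (adjusted p = 0.083). The remaining gene without a call was PMVK, the phosphomevalonate kinase, at 31.0 and 27.4 FPKM against 34.0 and 31.6.

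Rescaling the libraries by TMM factors moved the median of all genes from -0.17 to -0.01 and that of the members from -1.34 to -1.18. It gave 25 members lower and 1 higher (PMVK, 0.38, adjusted p = 0.012), ended the calls of SC5D (adjusted p = 0.12), INSIG2 (0.15) and FADS2 (0.087), and turned SCAP to 0.02 and ACLY to 0.04. The call of EBP was lost without either H1299-labelled control (adjusted p = 0.059 and 0.058), and its difference was -0.56 in place of -0.96 without A549-labelled control 1. Also lost were the call of FADS2 without A549-labelled control 2 (0.059) or H1299-labelled control 2 (0.054), and those of SC5D and INSIG2 without most single libraries (0.059 to 0.23).

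**Figure D1:**
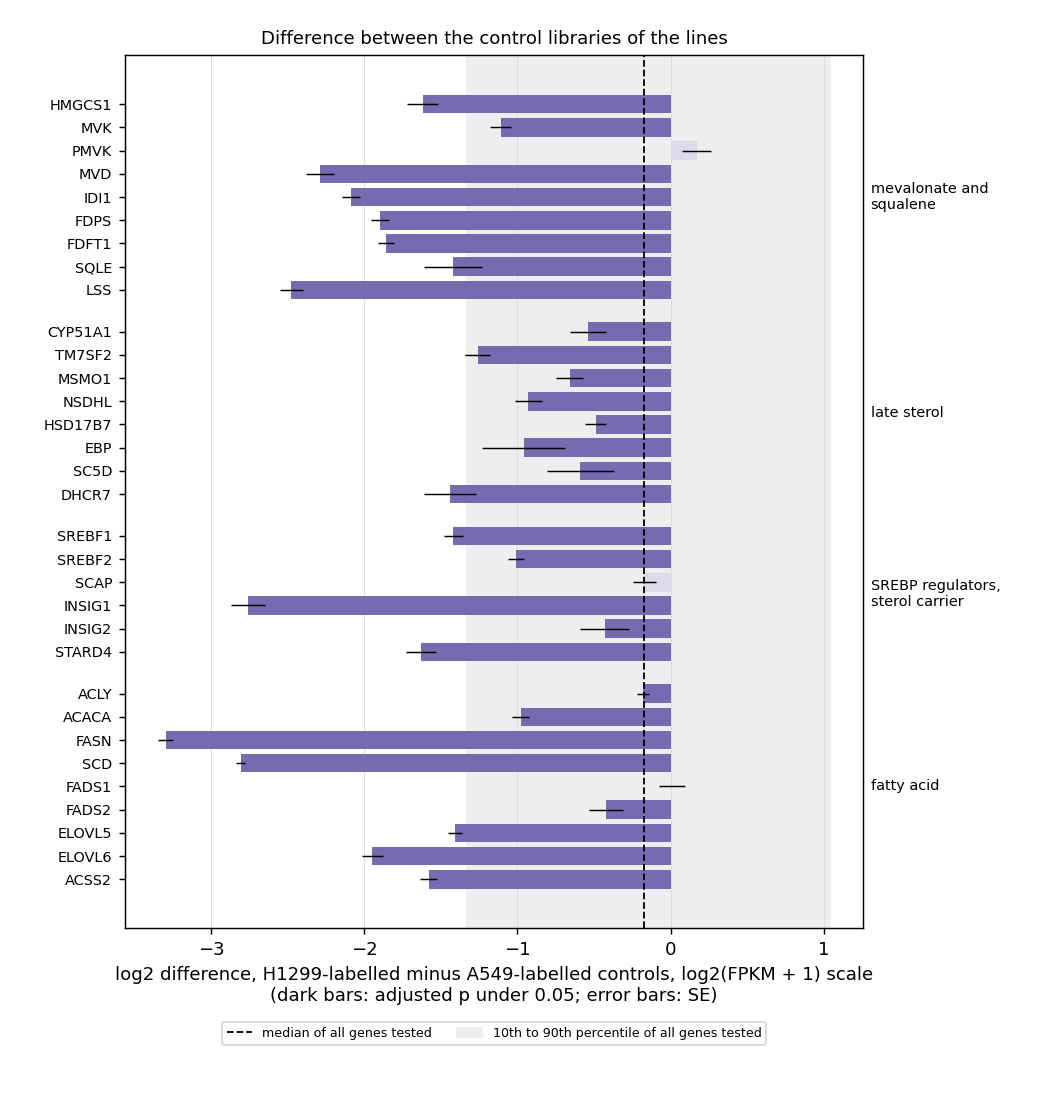
Log2 difference in level between the control libraries (H1299-labelled minus A549-labelled, log2(FPKM + 1) scale) for each of the 32 genes, grouped by role. The bars show the difference and their error bars the SE. Most lie below 0, with FASN lowest at -3.30 and PMVK highest at 0.17.

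In the H1299-labelled libraries most of the pathway was higher after miR-29a-3p. Of the 32 genes, 23 were called higher and 3 lower, where 25.1% of all genes were higher and 24.8% lower. The median log2 fold change of the members was 0.62, and that of all genes was 0. The 9 fatty acid enzymes were called higher without exception (9 of 9, median 0.99), and 11 of the 17 sterol enzymes were higher and 1 lower (median 0.74). With a pseudocount of 0.1 in place of 1 the medians lay closer together, at 1.0 and 0.84. The arms were compared by description only.

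Of the mevalonate and squalene enzymes, 6 rose and 1 fell. IDI1, the isopentenyl diphosphate isomerase, stood at 5.18 and 5.37 FPKM in the controls and at 14.95 and 15.02 after miR-29a-3p (log2 fold change 1.35 ± 0.06 SE, adjusted p = 1.9e-05). FDFT1, the squalene synthase, went from 2.04 and 1.85 FPKM to 4.93 and 4.86 (log2 fold change 1.0, adjusted p = 4e-05). FDPS, the farnesyl diphosphate synthase, was at 5.12 and 4.87 FPKM and then at 10.3 and 9.47 (log2 fold change 0.86, adjusted p = 9.1e-05), and has processed pseudogenes that may share its reads. Treated and control libraries did not overlap for any of the 3. MVD, the mevalonate diphosphate decarboxylase, was at 2.01 and 1.78 FPKM and then at 3.55 and 4.30 (log2 fold change 0.76, adjusted p = 0.00075). SQLE, the squalene epoxidase, was at 6.44 and 8.05 FPKM in controls and 11.5 and 11.9 after miR-29a-3p (log2 fold change 0.63, adjusted p = 0.029). Its call was lost without H1299-labelled control 1 (adjusted p = 0.14) or either treated library (0.087 and 0.10), and when low genes were not filtered out (0.074). PMVK fell, from 34.0 and 31.6 FPKM to 23.3 and 21.3 (log2 fold change -0.54, adjusted p = 0.0039), without overlap. HMGCS1, which makes HMG-CoA, was at 5.76 and 5.89 FPKM and then at 6.85 and 5.51, overlapping (adjusted p = 0.61). MVK rose (log2 fold change 0.38, adjusted p = 0.0044), and LSS stood at -0.01 on that scale (adjusted p = 0.94).

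Of the late sterol enzymes, 5 of 8 rose and none was called lower. MSMO1, the methylsterol monooxygenase, had the largest log2 fold change of all 32 genes in this line, from 4.43 and 4.20 FPKM to 19.8 and 18.8 (1.93 ± 0.09 SE, adjusted p = 2e-05). NSDHL, a sterol dehydrogenase of the same demethylation steps, went from 9.45 and 10.1 FPKM to 21.3 and 20.8 (log2 fold change 1.04, adjusted p = 0.00019). Both groups of libraries were separate for these genes. TM7SF2, a sterol reductase, was at 0.311 and 0.473 FPKM in controls and at 1.78 and 1.61 after miR-29a-3p (log2 fold change 0.95, adjusted p = 0.00018). HSD17B7, a ketosteroid reductase, went from 1.46 and 1.46 FPKM to 3.07 and 3.42 (log2 fold change 0.79, adjusted p = 0.00019). It has a closely related pseudogene copy, so its reads may be split or shared. DHCR7, which reduces dehydrocholesterol to cholesterol, was at 4.41 and 5.84 FPKM and then at 9.92 and 8.498 (log2 fold change 0.74, adjusted p = 0.010), a call lost without H1299-labelled control 1 (adjusted p = 0.055) or treated library 1 (0.059). CYP51A1, EBP and SC5D had log2 fold changes of 0.03 to 0.11 with no call. Without H1299-labelled control 1 the median of the 17 sterol enzymes was 0.57 in place of 0.74.

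The fatty acid enzymes rose together in level but by unlike amounts. FADS2, the delta-6 desaturase, went from 4.95 and 4.63 FPKM to 22.5 and 18.3 (log2 fold change 1.88 ± 0.11 SE, adjusted p = 4.6e-05). FADS1, the delta-5 desaturase, whose gene (chromosome 11, 61799625 to 61829318, minus strand) lies within the span of FADS2 (61792980 to 61867354, plus strand), was at 11.7 and 12.6 FPKM and then at 35.5 and 29.9 (log2 fold change 1.35, adjusted p = 6.7e-05). The strand setting of the counting is not given, so reads of these overlapping genes may not be told apart. SCD was at 142 and 140.4 FPKM and then at 332 and 325 (log2 fold change 1.21, adjusted p = 9.4e-06). FASN was at 13.6 and 13.8 FPKM and then at 31.5 and 31.7 (log2 fold change 1.15, adjusted p = 1.6e-05). ACLY, which makes cytosolic acetyl-CoA from citrate, was at 44.2 and 45.1 FPKM and then at 89.3 and 89.6 (log2 fold change 0.99, adjusted p = 1.7e-05). ACSS2, which makes acetyl-CoA from acetate, went from 1.85 and 1.96 FPKM to 3.36 and 3.44 (log2 fold change 0.60, adjusted p = 0.00026). No treated library overlapped a control for these 6 genes. The elongases ELOVL5 and ELOVL6 and the carboxylase ACACA had log2 fold changes of 0.21 to 0.38, and the ELOVL5 call was lost without H1299-labelled control 1 (adjusted p = 0.053) or treated library 2 (0.056).

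**Figure D2:**
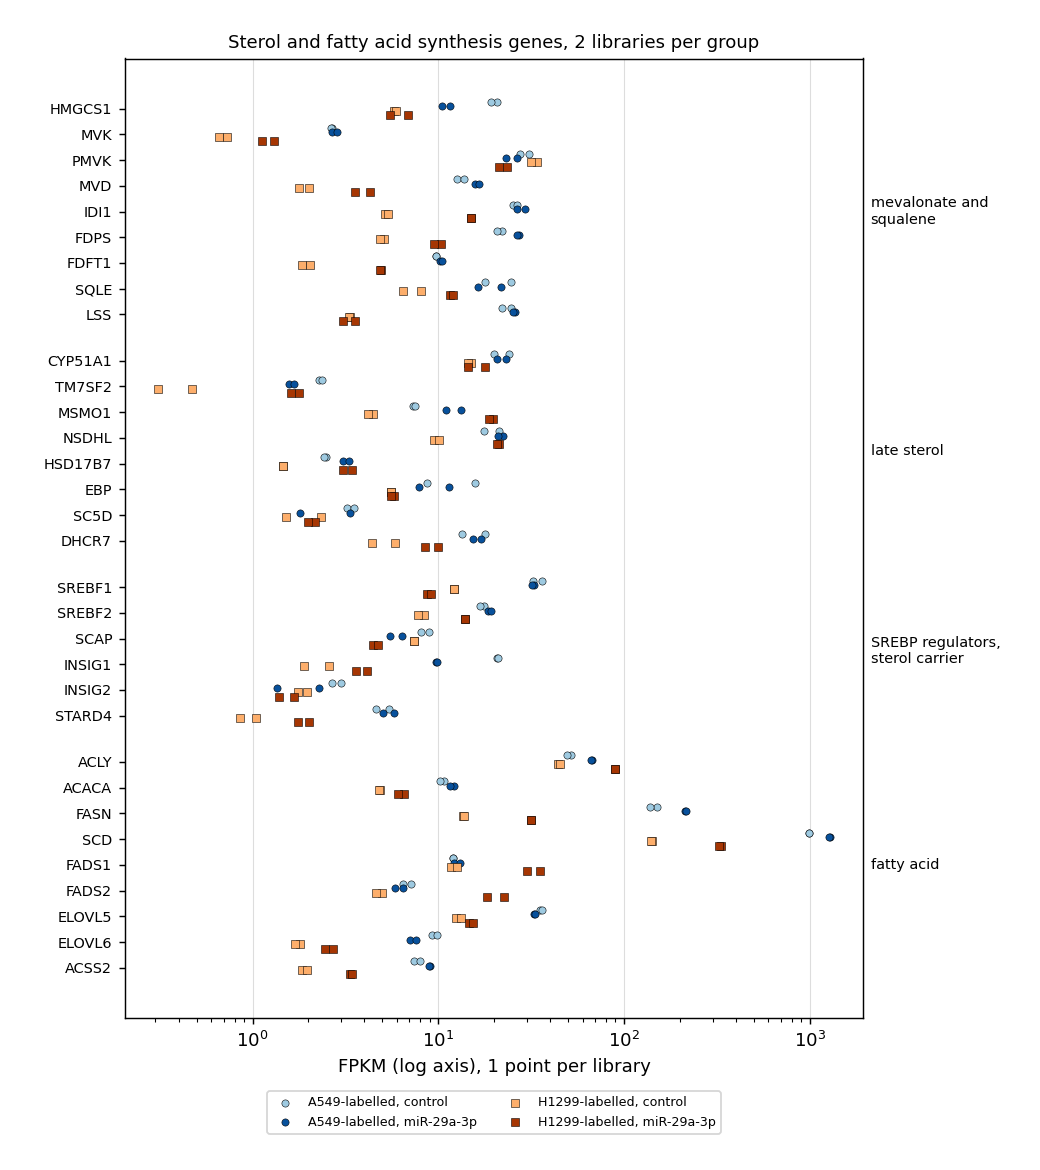
Level of each of the 32 genes in each of the 8 libraries, in FPKM, with the lines as labelled. In the H1299-labelled libraries the treated points of SCD (332 and 325 FPKM) and MSMO1 (19.8 and 18.8 FPKM) lie above both controls.

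In the A549-labelled libraries fewer members passed the test. Of the 32 genes, 6 were called higher and 5 lower, where 7.30% of all genes were higher and 8.66% lower, and the median log2 fold change of the members was 0.06 against 0 for all genes. FASN, SCD and ACLY rose, as did MSMO1, FDPS and HSD17B7, and HMGCS1, INSIG1, SCAP, TM7SF2 and ELOVL6 fell. HMGCS1, MSMO1, INSIG1, ACLY, FASN and SCD were called under every alternative run. Fitting each line alone, or leaving out either A549-labelled control, left 7 members called. The A549-labelled controls agreed within counting noise in 1 of 2 checks and may be a single library. Averaged into 1 library, they left 6 members and 938 genes called, and the calls of FDPS (adjusted p = 0.071), HSD17B7 (0.14), TM7SF2 (0.13), SCAP (0.053) and ELOVL6 (0.080) were lost.

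HMGCS1 fell from 20.8 and 19.2 FPKM to 10.48 and 11.6 (log2 fold change -0.80 ± 0.10 SE, adjusted p = 0.0044), with no overlap. FDPS went from 22.0 and 20.8 FPKM to 27.3 and 26.5 (log2 fold change 0.32, adjusted p = 0.018). The FDPS call was lost without A549-labelled control 2 (adjusted p = 0.088) or either treated library (0.085 and 0.063). The other mevalonate and squalene enzymes had no call, and SQLE at 17.8 and 24.5 FPKM in controls and 16.5 and 21.7 after miR-29a-3p shows the spread between replicates. MSMO1 rose from 7.32 and 7.48 FPKM to 11.0 and 13.3 (log2 fold change 0.64, adjusted p = 0.0058), again without overlap. TM7SF2, lower at 1.56 and 1.68 FPKM after 2.28 and 2.37 (log2 fold change -0.34, adjusted p = 0.035), and HSD17B7, higher at 3.07 and 3.30 after 2.50 and 2.42 (log2 fold change 0.27, adjusted p = 0.040), lost their calls without any single A549-labelled library (adjusted p = 0.084 to 0.15). With the replicate number as a block these 2 calls were also lost (adjusted p = 0.055 and 0.057). The same held without the filter on low values (0.08 and 0.07) and with each line fitted alone (0.073 and 0.11). A pseudocount of 0.1 ended the TM7SF2 call (0.11). The HSD17B7 call was also lost without any single H1299-labelled library, and the TM7SF2 call without either treated H1299-labelled library.

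In the fatty acid arm, FASN rose from 150.1 and 139 FPKM to 214 and 217 (log2 fold change 0.57 ± 0.05 SE, adjusted p = 0.0011). SCD rose from 993 and 994 FPKM to 1281 and 1277 (log2 fold change 0.36, adjusted p = 0.0014). ACLY rose from 52.2 and 49.5 FPKM to 67.2 and 66.3 (log2 fold change 0.39, adjusted p = 0.0027). All 3 were above both controls in both treated libraries. ELOVL6, the elongase of saturated chains, fell from 9.31 and 9.91 FPKM to 7.09 and 7.57 (log2 fold change -0.35, adjusted p = 0.020), a call lost without any one A549-labelled library (adjusted p = 0.055 to 0.098). FADS1 and FADS2, the genes with large changes in the H1299-labelled cells, were at 0.07 and -0.12 here (adjusted p = 0.63 and 0.51). The arm as a whole had 3 genes higher, 1 lower and a median of 0.16, and the sterol enzymes 3 higher, 2 lower and a median of 0.05.

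The arms can also be set side by side as summed FPKM. The 9 fatty acid enzymes summed to 1277 and 1266 FPKM in the A549-labelled controls and 1641 in each treated library, most of it SCD. For the H1299-labelled cells this sum was 237 and 238 in controls and 538 and 521 after miR-29a-3p. The 17 sterol enzymes summed to 252 and 251 FPKM in the A549-labelled control libraries and to 246 and 262 in the treated ones, which overlap, and to 108 and 107 against 162 and 152 in the H1299-labelled ones.

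**Figure D3:**
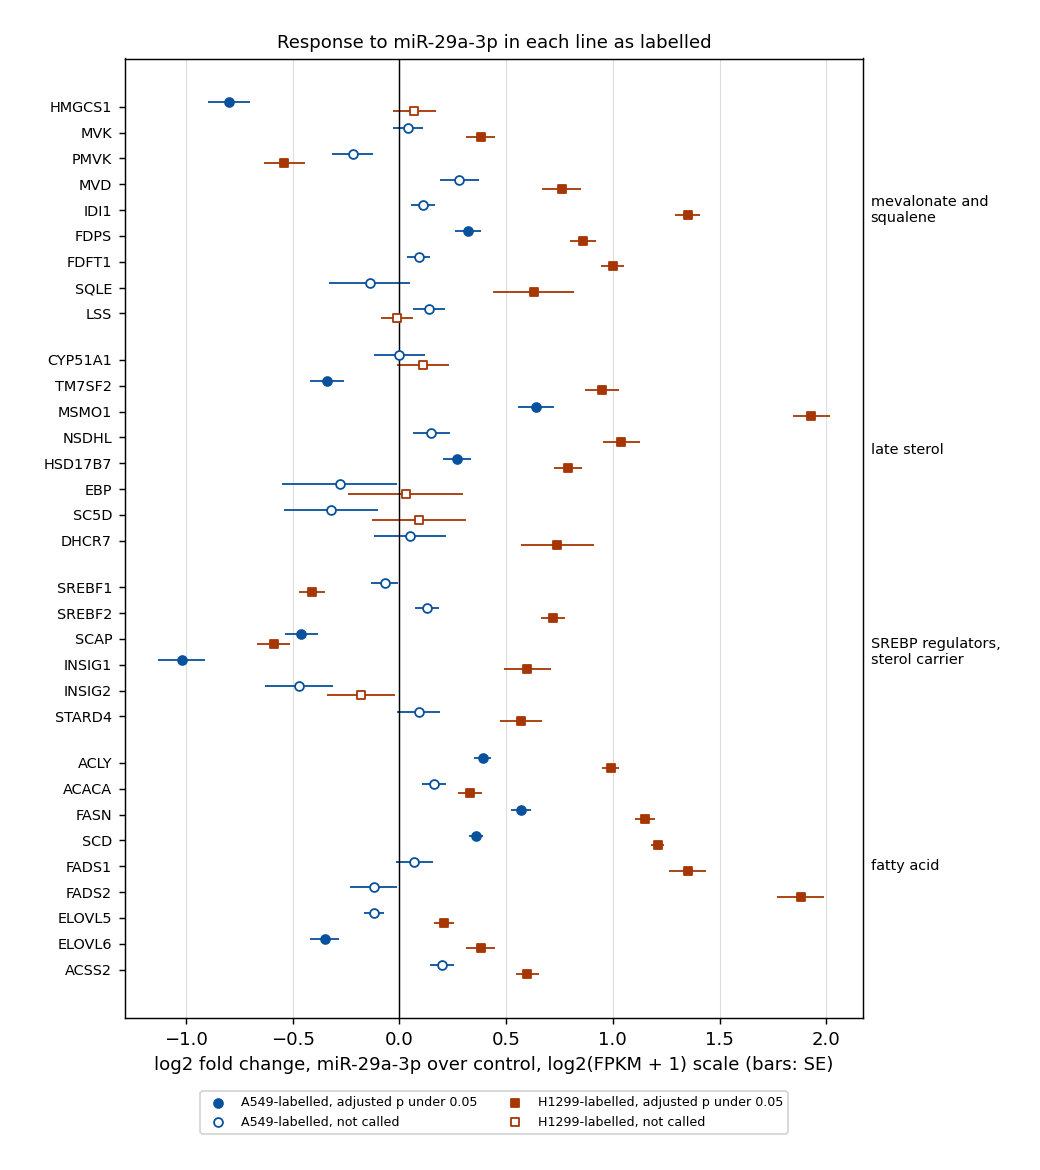
Log2 fold change (miR-29a-3p over control, log2(FPKM + 1) scale) of the 32 genes in the A549-labelled and the H1299-labelled libraries, grouped by role. The fatty acid enzymes all lie above 0 in the H1299-labelled libraries, from 0.21 to 1.88, and span -0.35 to 0.57 in the A549-labelled ones.

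The regulators moved in both directions. In the A549-labelled libraries 2 of 6 fell and 0 rose (limma; also 0 higher at an unadjusted p under 0.05), and in the H1299-labelled ones 3 rose and 2 fell. Of all genes, 7.30% rose and 8.66% fell in the A549-labelled libraries, and 25.1% rose and 24.8% fell in the H1299-labelled ones. INSIG1 (chromosome 7, 155297776 to 155310235) was at 20.8 and 21.0 FPKM in the A549-labelled controls and fell to 9.74 and 9.88 with miR-29a-3p (log2 fold change -1.02 ± 0.11 SE, adjusted p = 0.0028). The H1299-labelled libraries showed the opposite, from 1.89 and 2.59 to 3.63 and 4.14 FPKM (0.60, adjusted p = 0.0043). INSIG1 was thus called lower in 1 line and higher in the other, without overlap in either. SCAP, the escort protein, was lower in both, from 8.90 and 8.08 FPKM to 6.34 and 5.50 in the A549-labelled libraries (log2 fold change -0.46, adjusted p = 0.013) and from 7.40 and 7.42 to 4.45 and 4.72 in the H1299-labelled ones (-0.59, adjusted p = 0.0011). The A549-labelled SCAP call was lost without A549-labelled control 1 (adjusted p = 0.065) or treated library 2 (0.054), and when each line was fitted alone (0.070).

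SREBF2, the factor of the sterol genes, rose in the H1299-labelled libraries from 8.34 and 7.73 FPKM to 13.9 and 13.9 (log2 fold change 0.72 ± 0.06 SE, adjusted p = 0.00013). In the A549-labelled ones it stood at 17.6 and 16.7 and then 18.4 and 19.3 FPKM (0.13, adjusted p = 0.17). SREBF1, the factor of the fatty acid genes, fell in the H1299-labelled libraries from 12.1 and 12.1 to 8.67 and 9.14 FPKM (-0.41, adjusted p = 0.0022), while the fatty acid enzymes of that line were higher. In the A549-labelled libraries SREBF1 was at 36.0 and 32.2 and then 33.0 and 31.9 FPKM, overlapping (adjusted p = 0.51). INSIG2, a second retention protein, was at 3.005 and 2.69 FPKM and then 1.36 and 2.27 in the A549-labelled libraries (-0.47, adjusted p = 0.094; -0.71 and 0.025 without treated library 2, and -0.23 at the other end of the range without single libraries) and at 1.97 and 1.76 and then 1.67 and 1.39 in the H1299-labelled ones (adjusted p = 0.38). STARD4, a cytosolic sterol carrier, rose in the H1299-labelled libraries from 0.854 and 1.04 to 2.02 and 1.75 FPKM (0.57, adjusted p = 0.0047) and was at 4.62 and 5.46 and then 5.04 and 5.78 in the A549-labelled ones, overlapping (adjusted p = 0.63). The labels do not say whether the libraries of a group came from separate cultures, so the p-values speak only to the spread between these particular libraries, and that spread could be technical.

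**Figure D4:**
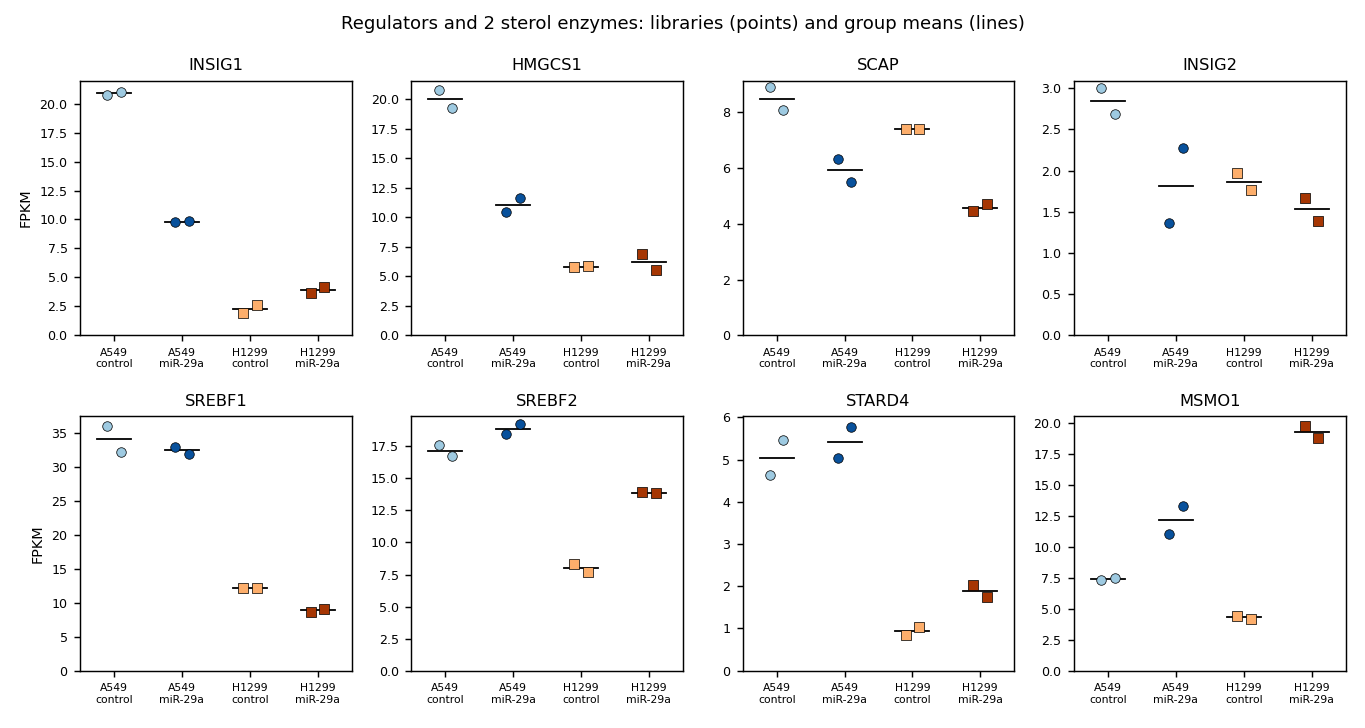
Level in FPKM of the 6 SREBP regulators and carriers and of HMGCS1 and MSMO1 in each library (points) with the group mean (lines), control and miR-29a-3p for each labelled line. INSIG1 is lower after miR-29a-3p in the A549-labelled libraries (9.74 and 9.88 FPKM) and higher in the H1299-labelled ones (3.63 and 4.14 FPKM).

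The responses of the lines were compared by the difference of the fold changes, A549-labelled minus H1299-labelled. It was called negative for 21 of the 32 genes and positive for 1, where 19.2% of all genes were negative and 18.1% positive, and its median was -0.56 with 0 for all genes. On the log2(FPKM + 1) scale FADS2 had the widest difference (-2.0 ± 0.15 SE, adjusted p = 0.00029), followed by INSIG1 (-1.62, adjusted p = 6e-04). The order depends on that scale, where fold changes come out too small for low genes. TM7SF2, a low gene, stood at -1.30. Its ratios of mean FPKM, treated over control, were 0.697 in the A549-labelled and 4.32 in the H1299-labelled libraries. For FADS2 they were 0.911 and 4.26. By arm, it was negative for 8 of 9 fatty acid enzymes (median -0.60) and for 10 of 17 sterol enzymes (median -0.54). The 1 positive difference was that of SREBF1 (0.34, adjusted p = 0.026). Differences of MVK, MVD, SREBF1 and STARD4 lost their calls on leaving out single libraries (adjusted p up to 0.096, 0.082, 0.077 and 0.12).

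The 6 genes with a TGGTGCT match did not share a direction. In the A549-labelled libraries their log2 fold changes were -1.02 (INSIG1), -0.80 (HMGCS1), -0.46 (SCAP), -0.07 (SREBF1), 0.04 (MVK) and 0.16 (ACACA). They were 0.60, 0.07, -0.59, -0.41, 0.38 and 0.33 in the same order in the H1299-labelled libraries. Across all tested genes the median log2 fold change was -0.09 for the 1908 with such a match and 0.02 for the 7658 with no 6mer in the A549-labelled libraries, and -0.12 and 0.04 in the H1299-labelled ones. A match is a description of the letters only.

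Promoter windows from 250 bases before to 50 after the start were found in RefSeq (GRCh38.p14) for 29 of the 32 genes, all but FDFT1, SQLE and FASN. They were searched on both strands for TCACNCCAC, a form of the sterol regulatory element, for its core CACNCCAC, which every longer match also holds, and for CCAAT, a box bound by NF-Y. The longer form was present in 1 member, SREBF2, and in 1.39% of 27305 genes with a window. The core was present in 6 members (INSIG1, IDI1, SCD, SC5D, ACACA and SREBF2) and in 7.05% of genes. CCAAT was present in 22 of the 29 and in 39.72% of genes, and at least 2 copies in 15 and in 12.91%. These shares are over all 27305 genes with a window, whether tested here or not, while all members were tested. NSDHL and MVK held 5 copies of CCAAT and MSMO1 held 4, while FADS2 held 1 and FADS1 held 0. Overlapping matches on opposite strands were counted separately, as for the NSDHL matches at -113 and -110, which share bases in CCAATTGG. Stretches of the SREBF2, INSIG1, IDI1 and SCD promoters and 1 MSMO1 copy are shown, chosen by the responses of these genes. The core holders SC5D and ACACA are not shown. Their log2 fold changes were 0.09 (no call) and 0.33 (called higher) in the H1299-labelled libraries. In the A549-labelled ones they were -0.32 and 0.16, without a call. A link between motif and response was not tested. Capitals mark the match as it reads on the gene's strand. The matches of INSIG1, IDI1 and SCD are the core read on the opposite strand. The stretches lie at chr22:41832962-41832991 (plus strand), chr7:155297660-155297689 (plus), chr10:1048982-1049011 (minus), chr10:100347109-100347138 (plus) and chr4:165327520-165327549 (plus), in that order.
SREBF2: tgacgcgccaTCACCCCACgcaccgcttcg
INSIG1: cgggccggcgGTGGCGTGtgcgcacgtcat
IDI1: gccgggcgatGTGGCGTGgactggcgctgg
SCD: cagaggccggGTGGTGTGgtgtcggtgtcg
MSMO1: atccgcggagCCAATggctgggaccgccag

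Other genes of the pathway were read from lists of their own, against the shares over all genes of 25.1% higher and 24.8% lower in the H1299-labelled libraries and 7.30% and 8.66% in the A549-labelled ones. Of 4 tested genes of other sterol and isoprenoid synthesis, 3 were higher and 1 lower in the H1299-labelled libraries (median log2 fold change 0.67), and 0 were called in the A549-labelled ones (median -0.11; limma, 1 lower at an unadjusted p under 0.05). ACAT2, which condenses acetyl-CoA for the mevalonate route, went from 4.03 and 3.62 to 7.49 and 8.25 FPKM in the H1299-labelled libraries (log2 fold change 0.88, adjusted p = 0.00013), and ERG28 rose by 0.97 (adjusted p = 0.00017). GGPS1, which makes geranylgeranyl diphosphate, fell from 5.71 and 4.91 to 2.95 and 3.03 FPKM (-0.66, adjusted p = 0.00073). Treated and control libraries did not overlap for these 3 genes. Of 7 genes of SREBP processing and INSIG turnover, 3 were lower and 0 higher in the H1299-labelled libraries and 0 were called in the A549-labelled ones (limma; at an unadjusted p under 0.05, 4 lower and 0 higher, and 1 lower). The lowest were SPRING1 (-0.46, adjusted p = 0.00065), ERLIN2 (-0.45, adjusted p = 0.001) and MBTPS2, the site-2 protease (-0.38, adjusted p = 0.0046).

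Sterol uptake, transport, esterification and efflux genes were called higher in 4 of 11 and lower in 0 in the A549-labelled libraries (median 0.32; limma, also 0 lower at an unadjusted p under 0.05). ABCA1, the cholesterol efflux pump, went there from 7.49 and 7.32 FPKM to 14.1 and 13.8 (log2 fold change 0.83, adjusted p = 0.00031). In the H1299-labelled libraries 5 were higher and 2 lower (median 0.25). NPC1, the lysosomal cholesterol exporter, was called in opposite directions, from 9.04 and 8.80 to 14.2 and 14.1 FPKM in the A549-labelled libraries (0.61, adjusted p = 0.0013) and from 24.1 and 24.6 to 10.8 and 9.99 in the H1299-labelled ones (-1.15, adjusted p = 2.1e-05). LIPA, the lysosomal lipase, rose in both (0.47, adjusted p = 0.018, and 0.98, adjusted p = 0.00023), its A549-labelled call being lost when each line was fitted alone (adjusted p = 0.079) or without A549-labelled control 1 (0.083) or 2 (0.064). TMEM97 was at 1.39 and 1.25 and then 3.65 and 6.96 FPKM in the H1299-labelled libraries (1.39, adjusted p = 0.0031).

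Of 18 tested genes of other fatty acid synthesis and activation, 7 were higher and 4 lower in the H1299-labelled libraries (median log2 fold change 0.05). The 4 lower ones had log2 fold changes of -0.93 to -0.37. In the A549-labelled libraries 2 were higher and 0 lower (median 0.07, limma, with 5 higher and 2 lower at an unadjusted p under 0.05). These 2 were ME1 (log2 fold change 0.26, adjusted p = 0.025) and ACSL3 (0.24, adjusted p = 0.041). Without single libraries their values were 0.23 to 0.29 and 0.19 to 0.29, with some calls lost. SCD5, a second desaturase, went from 2.11 and 2.29 to 9.04 and 9.34 FPKM in the H1299-labelled libraries (log2 fold change 1.67, adjusted p = 1.8e-05). SLC25A1, the mitochondrial citrate carrier, was at 3.67 and 6.51 and then 12.8 and 17.4 FPKM (1.43, adjusted p = 0.003). HACD3 was at 5.42 and 13.4 and then 19.0 and 17.2 FPKM (0.99, adjusted p = 0.048). Its fold change was 0.40 without H1299-labelled control 1 and 1.57 without control 2. The call was lost without each of the other 6 libraries (adjusted p = 0.076 to 0.16), without the filter (0.12), with a pseudocount of 0.1 (0.052), with each line alone (0.15) and with the replicate block (0.051).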

How the data were processed

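RNA was sequenced in 8 libraries, 2 a group; groups are those of the labels. Per the file headers, the authors deposited FPKM values for each gene. StringTie and GRCh38 are named by the submitters' processing notes. The aligner, annotation and strand setting: not given in the sources used here. A gene listed for 1 line only was taken as 0 in the other. A gene entered the test if 2 libraries or more reached 1 FPKM. Testing was by limma 3.58.1 (R 4.3.3; eBayes with trend) on log2(FPKM + 1), with 4 group means, with calls at an adjusted p below 0.05 (Benjamini-Hochberg, all tested genes). Fold changes are on that scale and come out too small for low genes. Overlap between treated and control libraries is described for single genes only. No share of all genes without overlap is given, so a lack of overlap is not a test. 1 gene of the other lists is not reported here and was left out of its list. Members and lists were chosen with earlier results of these data known. Values in every library are given for members called in a response with an absolute log2 fold change of at least 0.5 and at least 2 FPKM in a group, and for the 6 regulators; of each other list, at most 3 called genes with the largest change in each response are named. Alternatives were a pseudocount of 0.1, no filter, a mean of at least 5 FPKM, TMM scaling (own implementation of the trimmed mean of log ratios), each line alone, the replicate block and each library left out. The script was tested on simulated data. In a simulated H1299-labelled response it recovered 51% of log2 changes of 0.5 and 86% of changes of 1. It also called 5 unchanged genes. A gene without a call may therefore still have changed.

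Library depth was estimated from the FPKM steps of genes with 1 transcript, and 87.1% to 93.1% of their values between 0.5 and 200 estimated fragments came out whole within 0.02. Genes with more fragments often did not (247 of 1664 in the A549-labelled controls came out whole in both libraries, at 50 fragments or more in the pair). Same-numbered libraries did not deviate together (correlations -0.037 to 0.063). Replicates were compared with counting noise by a chi-square test over genes with 1 transcript and at least 50 fragments in the pair. Over those whose values came out whole, the chi-square per degree of freedom was 1.00 (247 genes, p = 0.47) for the A549-labelled controls and 1.23 to 1.58 for the other groups. Over all such genes it was 3.36 (1664 genes) for the A549-labelled controls and 4.29 to 7.05 for the others. The larger gene set was computed after the result of the smaller one had been seen. Most values in the larger set are not whole, so its chi-square also holds errors of the recovered fragments and does not settle the question: the A549-labelled controls may be 1 library sequenced or deposited in duplicate. They were kept as 2, as labelled, and averaging them into 1 was added as an alternative after the data were seen.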

Additional observations from a re-analysis of the deposited data

Results flagged for a closer look

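Of all genes tested, 19.2% had a negative and 18.1% a positive difference between the responses by the same test. For 22 of the 32 genes the response to miR-29a-3p differed between the labelled lines by a test of the difference itself (limma, A549-labelled minus H1299-labelled, log2 scale). Among the mevalonate and squalene enzymes these were HMGCS1 (-0.87, adjusted p = 0.0043), MVK (-0.35, adjusted p = 0.033), MVD (-0.49, adjusted p = 0.027), IDI1 (-1.24, adjusted p = 0.00019), FDPS (-0.54, adjusted p = 0.0037) and FDFT1 (-0.91, adjusted p = 0.00041). Among the late sterol enzymes they were TM7SF2 (-1.30, adjusted p = 0.00047), MSMO1 (-1.29, adjusted p = 6e-04), NSDHL (-0.89, adjusted p = 0.0026) and HSD17B7 (-0.51, adjusted p = 0.0072). Among the regulators they were SREBF1 (0.34, adjusted p = 0.026), SREBF2 (-0.59, adjusted p = 0.002), INSIG1 (-1.62, adjusted p = 6e-04) and STARD4 (-0.48, adjusted p = 0.044). Among the fatty acid enzymes they were ACLY (-0.60, adjusted p = 0.00063), FASN (-0.57, adjusted p = 0.0012), SCD (-0.85, adjusted p = 0.00011), FADS1 (-1.28, adjusted p = 6e-04), FADS2 (-2.0, adjusted p = 0.00029), ELOVL5 (-0.32, adjusted p = 0.01), ELOVL6 (-0.73, adjusted p = 0.0021) and ACSS2 (-0.40, adjusted p = 0.0093). TM7SF2, INSIG1 and ELOVL6 were called in opposite directions in the lines, although the A549-labelled calls of TM7SF2 and ELOVL6 were lost without any single A549-labelled library.

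Of the genes named from the other lists, the response differed for ERG28 (-1.01, adjusted p = 0.0011), ACAT2 (-1.07, adjusted p = 0.00049), GGPS1 (0.73, adjusted p = 0.0034), SPRING1 (0.44, adjusted p = 0.0058), ERLIN2 (0.33, adjusted p = 0.022), ABCA1 (0.58, adjusted p = 0.00091), NPC1 (1.76, adjusted p = 5.5e-05), LIPA (-0.51, adjusted p = 0.02), SCD5 (-1.41, adjusted p = 0.00023), CPT1A (0.49, adjusted p = 0.0026), ECI1 (0.89, adjusted p = 0.01) and HADH (-0.89, adjusted p = 0.014). NPC1 was called in opposite directions. Groups of 2 libraries are too small for a check of single outlying libraries.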

How the results depend on the processing

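The genes called in the A549-labelled libraries went from 2336 to 1071, and the members from 11 to 7, when each line was fitted alone. Leaving out single libraries gave 1066 to 1937 genes, 7 to 10 members and a regulator median of -0.33 to -0.16 (main -0.26). The A549-labelled controls did not differ beyond counting noise over 247 genes with whole fragments, though they did over 1664. Averaged into 1 library, an alternative chosen after seeing the data, they gave 938 genes and 6 members called in the A549-labelled response. In the H1299-labelled libraries the median of the sterol enzymes was 0.57 to 0.77 without single libraries. With a mean of at least 5 FPKM the calls fell to 3773 from 7312 (H1299-labelled), 2984 from 5464 (difference of responses) and 4923 from 10941 (control lines), with fewer genes tested, and the H1299-labelled regulator median to 0.10 from 0.19.

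With TMM scaling the control difference turned to 0.02 for SCAP and 0.04 for ACLY. Uncalled values changed sign without single libraries. In the A549-labelled response these ranged from -0.36 to 0.08 (SQLE), -0.13 to 0.12 (CYP51A1), -0.68 to 0.12 (EBP), -0.15 to 0.25 (DHCR7), -0.15 to 0.01 (SREBF1) and -0.01 to 0.19 (STARD4). In the H1299-labelled response they ranged from -0.07 to 0.20 (HMGCS1), -0.09 to 0.07 (LSS), -0.04 to 0.25 (CYP51A1) and -0.12 to 0.29 (SC5D). The difference of responses ranged from -0.25 to 0.04 (CYP51A1) and -0.71 to 0.10 (EBP), and the control difference of FADS1 from -0.03 to 0.06. The cause of these sign changes was not tested. With a pseudocount of 0.1 the H1299-labelled fold changes of MVK, TM7SF2 and STARD4 were 0.72, 1.89 and 0.92. On the main scale, where fold changes come out too small for low genes, they were 0.38, 0.95 and 0.57. With the replicate block, 1969 genes and 10 members were called in the A549-labelled libraries, 7134 and 26 in the H1299-labelled ones, 5202 and 23 for the difference of responses and 10877 and 28 for the control lines; the numbers do not pair the libraries.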

Other observations

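Fatty acid oxidation, the route opposite to synthesis, was called higher for 6 and lower for 3 of 11 tested genes in the H1299-labelled libraries (median log2 fold change 0.20), where 25.1% of all genes were higher and 24.8% lower, and higher for 1 and lower for 1 in the A549-labelled ones (median -0.03), where the shares of all genes were 7.30% and 8.66%. CPT1A, which admits long-chain fatty acids to mitochondria, was lower in both lines. It went from 11.0 and 11.0 FPKM to 8.93 and 8.41 in the A549-labelled libraries (log2 fold change -0.31, adjusted p = 0.0094, and 0.056 with each line alone) and from 16.3 and 16.04 to 8.98 and 8.79 in the H1299-labelled ones (-0.80, adjusted p = 5.7e-05). ECI1, an isomerase for unsaturated chains, fell in the H1299-labelled libraries from 7.11 and 8.33 to 3.34 and 4.59 FPKM (-0.82, adjusted p = 0.0022). ACADM was higher in both lines, by 0.32 in the A549-labelled libraries (limma, adjusted p = 0.017) and 0.45 in the H1299-labelled ones (adjusted p = 0.001). HADH was higher in the H1299-labelled libraries (0.59, adjusted p = 0.012). Without single libraries the A549-labelled ACADM value was 0.30 to 0.34 and the H1299-labelled HADH value 0.50 to 0.69, with some calls lost.

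Ratios between members were chosen after their values were seen. HMGCS1 made up 12.5% and 11.6% of the summed FPKM of the 9 mevalonate and squalene enzymes in the A549-labelled control libraries and 6.46% and 6.93% in the treated ones. In the H1299-labelled libraries it made up 8.9% and 9.3% and then 8.53% and 7.19%. The ratio of SREBF1 to SREBF2 (FPKM) was 1.46 and 1.57 in the H1299-labelled control libraries and 0.624 and 0.66 in the treated ones, and 2.05 and 1.93 and then 1.79 and 1.66 in the A549-labelled libraries.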
